A study of Mus musculus with 9 samples.

Results

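The E-protein genes Tcf4, Tcf12 and Tcf3 were followed through the insertion table of a transposon screen in mouse SHH medulloblastoma. They are 3 of 22353 gene symbols in that table, and all its lines with 1 of these symbols in a primary tumour with or without tamoxifen were used. These were 1626 of 2830612 such lines, with 1183 listed for Tcf4, 330 for Tcf12 and 113 for Tcf3. The older use of the symbol Tcf3 for another gene did not apply here, since the lines of Tcf3 lay on chromosome 10 and Tcf7l1 was listed on its own on chromosome 6.

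E-proteins are class I basic helix-loop-helix transcription factors. They pair with tissue-restricted partners of the same superfamily, such as Atoh1 in cerebellar granule neuron progenitors, and bind a short DNA motif called the E-box. The Id proteins, which lack the basic DNA-binding region, take them out of these pairs. Tcf4 encodes E2-2, Tcf12 encodes HEB and Tcf3 encodes E2A, and human SHH medulloblastoma is known for mutations of TCF4.

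The tumours came from Lazy Piggy mice, whose transposon joins the ends of Sleeping Beauty (SB) to those of piggyBac (PB), and the labels give no strain, sex, age or further allele. The screen asked which genes SHH medulloblastoma needs for its maintenance, and set 72 tumours of mice treated with tamoxifen against 47 tumours of mice without it. The authors' sample sheet listed chromosome 10 as the donor of the element in 53 treated and 37 untreated animals and chromosome 7 in 19 and 10. It also listed days for 71 of the treated animals, from 4 to 249 with a median of 49, without saying what the days count. Each tumour had 3 kinds of library. IR libraries were amplified from the SB ends, JX libraries from the boundary of the SB and PB parts, and PB libraries from the PB ends. In the published design of the system SB moves the element while tumours arise, and a PB transposase that tamoxifen switches on can remove it later. Tumours are numbered within each arm.

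Median depth per tumour in counts was 3115243 with tamoxifen and 3143569 without for IR, 441808.5 and 287429 for JX, and 204963.5 and 216967 for PB. The shallowest tumours had 295999 counts in IR and 1714 in PB. Animals of both arms were spread over 9 sequencing lanes, and each lane held both arms. Reads were counted without molecular identifiers, so intervals for shares of tumours cover counting of tumours only. Intervals for orientation cover counting of sites. A tumour could hold several sites of a gene, and the orientation intervals take these as independent. All positions are in mm9, and no gene annotation of that build was at hand, so gene parts and coding effects are those that the table lists.

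Tcf12 and Tcf3 had insertions listed upstream, at 10 or more counts from 0.493 kb on for Tcf12 and from 1.506 kb on for Tcf3. The 250 bases before an annotated start are shown for both as background. They are read 5′ to 3′ from RefSeq windows of GRCm38.p6 with the E-box in capitals. For Tcf12 the window of its farthest upstream start is given, 1 of 3 in the reference, at chr9:72111820-72112069 on the minus strand. For Tcf3 the window is chr10:80433636-80433885 on the minus strand. This build differs from that of the insertion table, so no insertion was placed in these windows.
Tcf12: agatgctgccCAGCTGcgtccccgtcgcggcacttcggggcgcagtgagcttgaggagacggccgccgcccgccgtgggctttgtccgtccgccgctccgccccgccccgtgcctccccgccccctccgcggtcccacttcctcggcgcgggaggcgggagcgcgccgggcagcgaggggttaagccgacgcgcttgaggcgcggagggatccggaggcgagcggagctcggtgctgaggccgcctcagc
Tcf3: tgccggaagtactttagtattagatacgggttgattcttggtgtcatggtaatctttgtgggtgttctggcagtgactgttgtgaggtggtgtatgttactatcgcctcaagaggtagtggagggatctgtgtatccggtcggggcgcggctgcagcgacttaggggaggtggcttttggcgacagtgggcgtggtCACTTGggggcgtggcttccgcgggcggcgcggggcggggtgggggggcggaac
The motif searched was CANNTG, which also reads CANNTG on the other strand. The Tcf12 window held CAGCTG and the Tcf3 window held CACTTG, 1 match each. Of 32851 RefSeq windows of this length, 21753 (66.2%) held at least 1 match, so a match is common at start sites.

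The gene bodies differed in size. Listed body positions covered 343 kb of chromosome 18 for Tcf4 (69504214 to 69846859), 266 kb of chromosome 9 for Tcf12 (71692709 to 71959164) and 20.2 kb of chromosome 10 for Tcf3 (79873706 to 79893953). Upstream positions placed Tcf4 on the plus strand and the other two on the minus strand.

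A site was called in a tumour from a minimum of 10 counts on, if these came to 1% or more of the highest site in that tumour and kind of library. A site that met this in several tumours was credited only to the tumour with the highest share. Without this crediting, 26 of 72 tumours with tamoxifen (36.1%) and 22 of 47 without (46.8%) met the limits in an E-protein gene. All numbers of called sites below are with crediting. The 3 genes had 9 called sites, in 5 of 72 tumours with tamoxifen (6.94%, exact 95% interval 2.29 to 15.5%) and in 2 of 47 without (4.26%, 0.520 to 14.5%). Tcf4 accounted for 6 of them, Tcf12 for 2 and Tcf3 for 1. Over all 22353 genes of the table, 6.01% had a called site in IR, 15.9% in JX, 7.83% in PB and 20.3% in any kind. With sites on the animal's own donor chromosome left out, 4 tumours with tamoxifen (5.56%) and 2 without (4.26%) remained. The intervals of both arms overlap over most of their length.

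The largest share of a library that an E-protein site reached was downstream of Tcf4. In tamoxifen tumour 5 (donor chromosome 10, listed day 13) the position 69931188 of chromosome 18, listed 83.567 kb downstream of Tcf4, held 9154 JX counts. This was 1.71% of the JX library and 35.9% of its highest site, and only 3 sites of that library were higher. All of these JX counts came from the left end. The same tumour had 4403 IR counts at the position, from both ends, and 1405 PB counts within 300 bp. Untreated tumour 35 had 127 IR counts at the same position.

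The other called Tcf4 site seen in all kinds of library lay inside the gene. In untreated tumour 46 (donor chromosome 7) position 69554108 in intron 3 held 6276 IR counts (0.230% of the IR library) and 773 JX counts (0.279% of JX, 18.9% of its highest site). A PB site with 338 counts lay 191 bp away at 69553917. The table lists insertions there as disrupting the coding sequence. This was the only tumour with a called E-protein site in all 3 kinds of library, which make up 3 of the 9.

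The 2 remaining Tcf4 calls were a PB site of few counts and a position shared between tumours. In tamoxifen tumour 9 a PB site in intron 8 at 69788054 had 17 counts, with 169 IR counts 125 bp from it. In tamoxifen tumour 69 the call was 447 JX counts at 69439679, a position shared by nearly all tumours and described further on. Without that position 4 tumours with tamoxifen had a called site (5.56%, 1.53 to 13.6%).

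Tcf12 had a called site in 1 tumour of each arm. In tamoxifen tumour 46 position 71812644 of chromosome 9, in intron 3, held 1903 IR counts, all from the left end. That is 10.2% of the highest site and 0.643% of a library that was the shallowest IR library of both arms, and no JX or PB count lay there. In untreated tumour 16 position 71960526, listed 0.900 kb upstream, held 56 JX counts (1.34% of the highest JX site), 2153 IR counts and 37 PB counts 164 bp away. The intron 3 site is listed as not disrupting the coding sequence, and the other lies outside the gene body.

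The single Tcf3 call was also a JX site. In tamoxifen tumour 62 (donor chromosome 10, on which Tcf3 lies) position 79883081 in intron 5 held 2666 JX counts, all from the left end, against 2 IR counts and 0 PB counts. It made up 2.22% of the highest JX site. Untreated tumour 26 had 23 JX counts at the same position, also all from the left end and with no IR count.

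No difference between arms in called sites passed the test. Fisher's exact test (two-sided) with Benjamini-Hochberg adjustment was run on all genes hit in at least 3 animals. It covered 38 IR genes, 220 JX genes and 55 PB genes and called 0 of them (0% in each kind). At an unadjusted p under 0.05 there were 0, 1 and 1. Of the E-proteins only Tcf4 in JX reached 3 animals, with 2 tumours with tamoxifen and 1 without (exact p = 1, adjusted p = 1). A share as high as 4.99% of treated or 7.55% of untreated tumours is compatible with a count of 0 tumours, as seen for Tcf3 in IR.

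Below the level of a call, insertions in these genes were widespread. With at least 10 counts per tumour and no minimum share, and with positions spread over many tumours left out, Tcf4 had an IR site in 53 of 72 tumours with tamoxifen (73.6%, exact 95% interval 61.9 to 83.3%) and in 28 of 47 without (59.6%, 44.3 to 73.6%). Tcf12 had one in 36 (50%) and 20 (42.6%). Tcf3 had one in 15 (20.8%) and 4 (8.51%). With spread positions kept, Tcf4 had one in 58 (80.6%) and 32 (68.1%), and the other genes did not change. Any of the 3 genes carried such an IR site in 60 treated (83.3%) and 30 untreated tumours (63.8%), and all 3 did in 7 and 1. In JX any of them did in 11 (15.3%) and 13 (27.7%), in PB in 25 (34.7%) and 18 (38.3%), and in any kind in 62 (86.1%) and 35 (74.5%). These shares over the 3 genes were not tested.

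**Figure D1:**
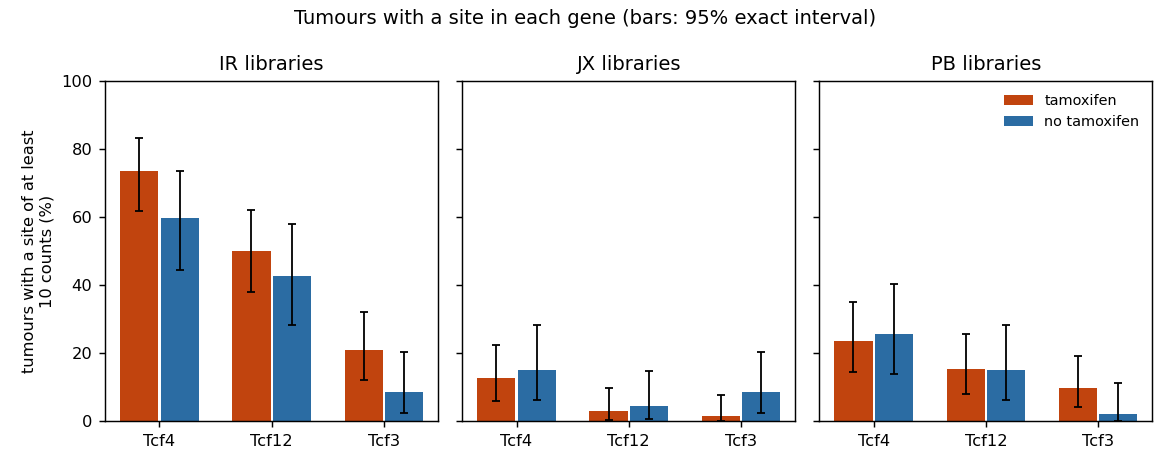
Percent of tumours with at least 1 site of 10 or more counts in each gene, by kind of library and arm, with spread positions left out and exact 95% intervals as bars (72 tumours with tamoxifen, 47 without). In IR the share falls from Tcf4 to Tcf12 to Tcf3 in both arms, and the intervals of the arms overlap in every pair.

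None of these differences between arms passed. Fisher's exact test (two-sided) over 17807 IR genes, 4514 JX genes and 9795 PB genes called 0 (0% in each kind), with 514, 81 and 167 genes at an unadjusted p under 0.05. In IR the exact p was 0.159 for Tcf4, 0.457 for Tcf12 and 0.0803 for Tcf3, and each adjusted p was 1. Over all genes tested in IR the median share of tumours was 8.33% with tamoxifen and 8.51% without, and 10926 genes had a higher share with tamoxifen against 6881 with a lower one. The median tumour had 3326 such IR sites over all genes with tamoxifen and 2418 without, and the part of this number in the E-protein values was not tested. With any count at all taken as a site, Tcf12 was listed in 59 treated (81.9%) and 30 untreated tumours (63.8%), with an exact p of 0.0319 and an adjusted p of 1.

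JX and PB gave lower shares. Tcf4 had a JX site in 9 treated (12.5%) and 7 untreated tumours (14.9%) and a PB site in 17 (23.6%) and 12 (25.5%). Tcf12 had a JX site in 2 and 2 and a PB site in 11 (15.3%) and 7 (14.9%). Tcf3 had a JX site in 1 treated (1.39%) and 4 untreated tumours (8.51%) and a PB site in 7 (9.72%) and 1 (2.13%). The Tcf3 JX sites lay at only 2 positions, and both were found in at least 2 tumours. Over all genes 7.28% of 36085 JX sites were shared in this way. The exact p-values for Tcf3 were 0.0787 in JX and 0.145 in PB, and the adjusted p was 1 for all 6 comparisons. Tumours with a Tcf4 site in PB were sequenced more deeply in PB than the others, with medians of 462125 against 129777 counts in the treated arm and 432918 against 158476 in the untreated arm. In IR the tumours with a Tcf4 site were not the deeper ones (3105262 against 3528104 counts with tamoxifen).

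The number of sites within a tumour was small. Tcf4 had 126 IR sites over the treated and 68 over the untreated tumours, with a median of 1 per tumour in both arms. The most in 1 tumour were 7 in tamoxifen tumour 3 and 8 in untreated tumour 25. For Tcf12 the most were 9, in tamoxifen tumour 61, and for Tcf3 they were 2.

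Counting a position once per tumour over all kinds of library gave 229 loci in Tcf4 (152 with tamoxifen, 77 without), 124 in Tcf12 (84 and 40) and 30 in Tcf3 (23 and 7). Most were seen in a single kind of library, and 22 Tcf4 loci, 5 Tcf12 loci and 4 Tcf3 loci were seen in 2 or 3 kinds. Per 100 kb of body the loci numbered 58.1 for Tcf4, 38.7 for Tcf12 and 74.1 for Tcf3, so by length the order was not that of the shares of tumours. The Tcf3 value rests on 15 loci, with a shared position counted in each tumour. Distinct IR sites per 100 kb of body were 44.7 for Tcf4, 31.9 for Tcf12 and 44.5 for Tcf3.

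The listed effect on the coding sequence separated Tcf12 from the other members. Which transcript these labels follow is not known, and the reference has 3 starts for Tcf12. The table counts upstream Tcf12 distances from 71959626 and downstream ones from 71743903, a point among its intron 3 loci. The contrast is therefore one of labels, and was not checked against an annotation. In Tcf4 194 of 229 loci (84.7%) were intronic and disrupting. In Tcf12 94 of 124 (75.8%) were intronic and not disrupting, and 91 of the 124 lay in intron 3, against 8 (6.45%) that were intronic and disrupting. Among IR sites in gene bodies the share listed as disrupting was 98.8% for Tcf4 (166 of 168), 8.99% for Tcf12 (8 of 89) and 100% for Tcf3 (9 of 9), against 82.1% over all genes. The shares were close in both arms, with 64 of 84 treated Tcf12 loci (76.2%) and 30 of 40 untreated ones (75%) intronic and not disrupting. The disrupting Tcf12 loci were 7 with tamoxifen and 1 without, all in introns 7 to 13.

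**Figure D2:**
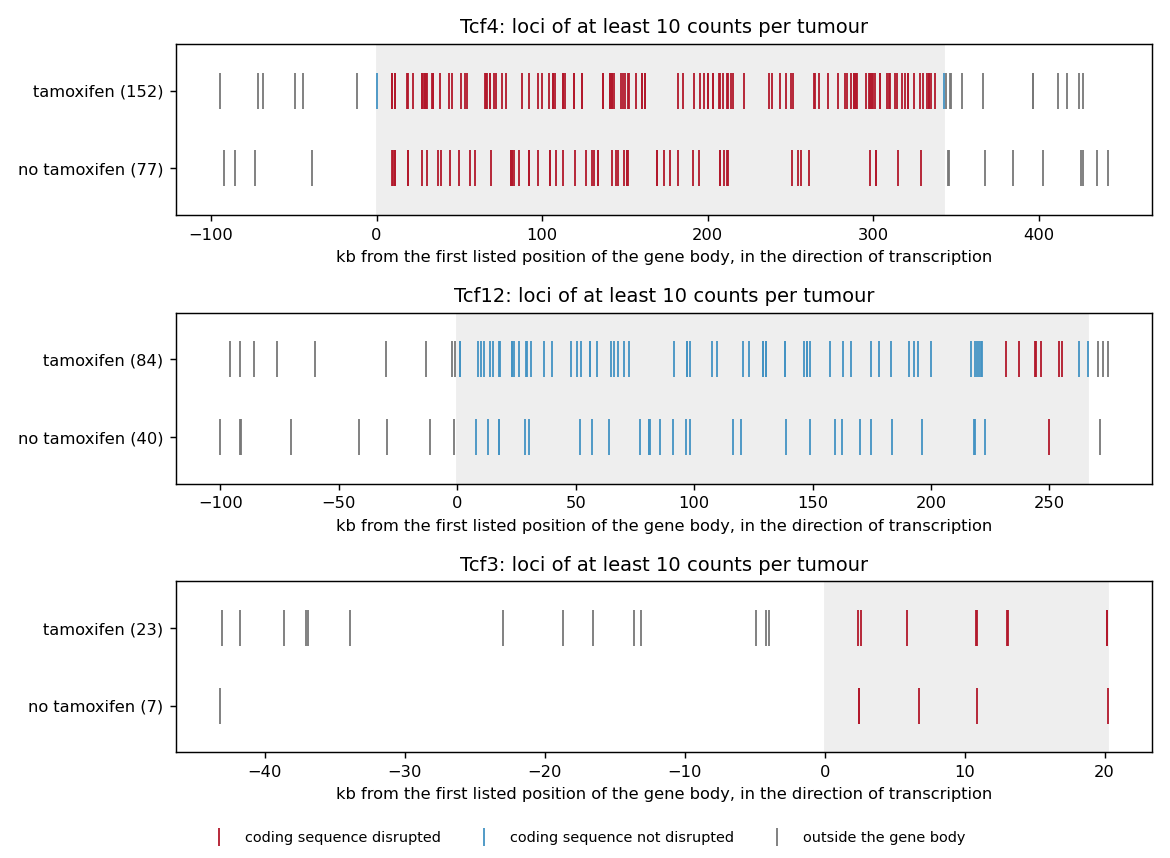
Loci of at least 10 counts in a tumour, placed by their distance in kb from the first listed body position in the direction of transcription, for treated tumours (upper row) and untreated ones (lower row), with the listed gene body shaded. Red ticks are listed as disrupting the coding sequence, blue as not disrupting and grey as outside the body: Tcf4 is nearly all red, Tcf12 mostly blue, and Tcf3 has 14 of its 15 upstream loci in treated tumours.

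Within Tcf4 most loci lay in a few introns. Intron 3 held 75 (45 with tamoxifen, 30 without), intron 5 held 36 (21 and 15), intron 6 held 25 (16 and 9), intron 8 held 21 (17 and 4) and intron 15 held 13 (11 and 2). Exons held 5 loci, all in treated tumours, which held 152 of the 229 Tcf4 loci, and this split was not tested. Exonic loci were 1.31% (disrupting) and 0.873% (not disrupting) of all Tcf4 loci. Over all genes these shares were 1.68% and 1.72% of IR sites. After the called intron 3 site, the highest inner loci seen in more than 1 kind of library were in untreated tumours. Untreated tumour 37 had 2008 IR and 32 PB counts at 69678083 in intron 5. Untreated tumour 45 had 1756 IR, 17 JX and 161 PB counts at 69515282 in intron 3.

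Outside the body Tcf4 had 10 upstream and 20 downstream loci. The distances that the table gives for upstream Tcf4 positions all count to 69847621, the point from which downstream distances are also counted and which lies past the end of the body. Counted from the first body position instead, the upstream loci lay 11.6 to 94.3 kb away, where the table lists 355 to 438 kb. The downstream loci were listed 0.856 to 98.487 kb away.

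Tcf12 had 17 upstream loci, listed 0.493 to 99.499 kb from the gene, and 2 of these within 1 kb. One is the called site of untreated tumour 16. The other, at 71960119, had 1256 IR and 121 PB counts in tamoxifen tumour 61. Farther out, untreated tumour 20 had 4697 IR, 150 JX and 420 PB counts at 71970685, listed 11.059 kb upstream, the highest IR count of any Tcf12 locus. The 4 downstream loci lay 4.15 to 8.27 kb past the body, since their listed distances of 55.3 to 59.5 kb count to a point inside the gene.

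In Tcf3 15 of 30 loci (50%) were intronic and disrupting and 15 were upstream, listed 1.506 to 40.715 kb away with a median of 20.547 kb. Treated tumours held 14 of the upstream loci and 9 intronic ones, and untreated tumours held 1 and 6. This split was not tested. The highest Tcf3 IR count lay in intron 2 at 79891490, with 2438 IR, 44 JX and 820 PB counts in untreated tumour 2. At the same position untreated tumours 28 and 14 had 366 and 21 JX counts and no IR or PB count.

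Recurrence between tumours was counted at 10 or more counts, after positions spread over many tumours had been left out. Of 214 Tcf4 positions, 15 (7.01%) had at least 10 counts in 2 tumours, 8 of these in 1 tumour of each arm. For Tcf12 they were 5 of 119 (4.20%), and for Tcf3 2 of 27 (7.41%), where the most tumours at 1 position were 3. In IR 16 of 178 Tcf4 sites (8.99%), 4 of 100 Tcf12 sites (4%) and 0 of 22 Tcf3 sites were found in at least 2 tumours, against 4.81% of 375654 sites over all genes. Of the loci, counted once per tumour, 67.2% in Tcf4, 71.8% in Tcf12 and 56.7% in Tcf3 lay at positions listed in a single tumour. This was taken at any count, in the kind of library where the locus had the most counts. At some shared Tcf4 positions 1 tumour had many IR counts and the other few, with 1756 and 10 at 69515282 and 705 and 10 at 69608914. At others the counts were closer, with 32 and 56 at 69596386. Whether low counts at a shared position were reads of another animal in the lane was not tested, so sharing need not mean separate insertions.

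The CPM of a gene, its counts scaled to the tumour's counts of that kind that have a listed gene, varied widely between tumours. For Tcf4 in IR they ran from 0.443 to 2208 with tamoxifen with a median of 45.0, and from 0 to 2752 without with a median of 26.4. The highest were tamoxifen tumour 5 and untreated tumour 46, the carriers of the called sites, and the arms overlapped over nearly the whole range. Tcf12 in IR ran from 0 to 7274 with a median of 3.74 with tamoxifen, and from 0 to 1397 with a median of 2.15 without. Tcf3 in IR had a median of 0 in both arms, with highest values of 423 and 1020. The highest tumour of an arm held 24.8% of the treated and 32.0% of the untreated IR counts of Tcf4, 19.3% and 62.3% of those of Tcf12, and 23.9% and 91.3% of those of Tcf3. In JX it held 42.3% and 11.3% for Tcf4, and 99.3% (tamoxifen tumour 62) and 77.2% for Tcf3.

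**Figure D3:**
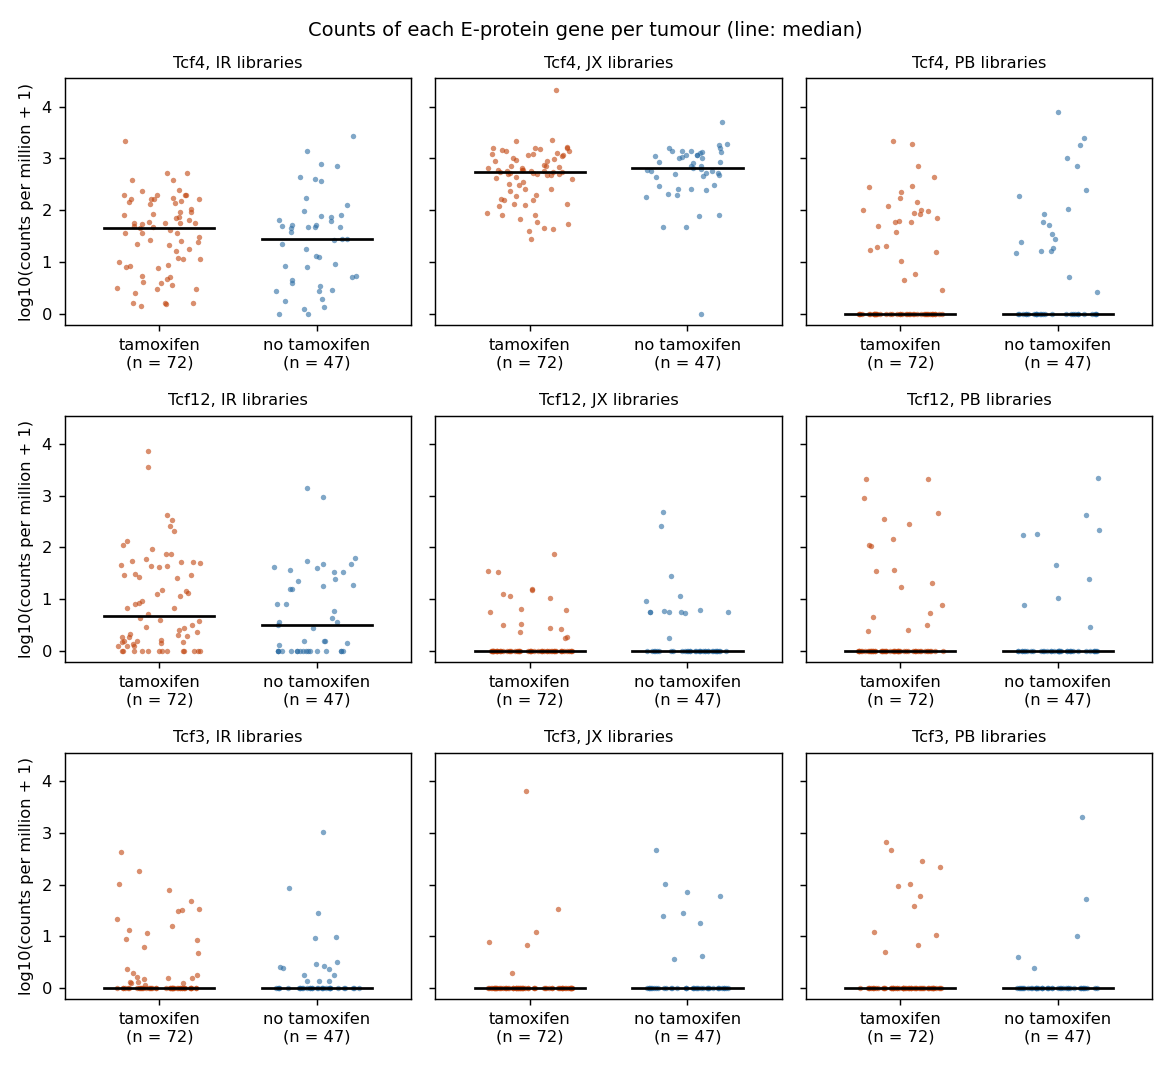
CPM of each gene in each tumour, on a log10 scale after adding 1, with 1 point per tumour and the median as a line (72 tumours with tamoxifen, 47 without). The arms overlap in all 9 panels. Tcf4 in JX stands well above 0 in all tumours but 1 untreated one, and in most other panels of JX and PB the median lies at 0.

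The test on counts per gene called no member between arms, and the Tcf4 values depended on scaling and on single tumours. edgeR's quasi-likelihood test with Benjamini-Hochberg adjustment called 489 of 1823 genes in IR (26.8%), 78 of 1420 in JX (5.49%) and 12 of 29 in PB (41.4%). In IR Tcf12 was higher with tamoxifen by 1.59 ± 0.79 on the log2 scale (SE, adjusted p = 0.128 by edgeR) and Tcf4 had a difference of -0.59 ± 0.53 (adjusted p = 0.434 by edgeR), where the median over all genes tested was 0.62. In JX the Tcf4 difference was 0.15 ± 0.31 (adjusted p = 0.925 by edgeR), with a median of -0.23 over all genes. Tcf3 in IR, Tcf12 and Tcf3 in JX and all members in PB had too few counts for the test. Without tamoxifen tumour 46 the Tcf12 difference was 0.46 (adjusted p = 0.693 by edgeR), and without untreated tumour 46 the Tcf4 difference in IR was -0.03 (adjusted p = 0.976 by edgeR). With TMMwsp scaling, where the median of all genes was 0.05, Tcf4 in IR was lower with tamoxifen (log2 difference -1.29, adjusted p = 0.0325 by edgeR), while limma gave it the opposite sign (0.40, adjusted p = 0.834). In JX, Tcf4 was higher with DESeq2 size factors (0.82, adjusted p = 0.0365 by edgeR) and had -0.38 without tamoxifen tumour 5 (adjusted p = 0.672 by edgeR). Of the called genes in IR 336 were higher with tamoxifen and 153 lower, against 242 and 214 with TMMwsp and 260 and 264 with DESeq2 size factors. In JX they were 36 and 42, against 85 and 49 with TMMwsp and 90 and 50 with DESeq2 size factors. The counts of called genes depended on the fit too: limma on log2 CPM called 0 genes in each kind, with 131, 194 and 0 at an unadjusted p under 0.05, and edgeR with lane as a covariate called 5, 0 and 0, with 261, 57 and 2.

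The JX counts of Tcf4 were carried by 1 position. At 69439679 of chromosome 18, 64.535 kb before the first body position and listed at 407.942 kb, 118 of 119 tumours had at least 10 JX counts. Tumours with tamoxifen had 20 to 447 JX counts there with a median of 156, and tumours without had 0 to 427 with a median of 170. The 5 control DNAs with all kinds of library had 68, 117, 124, 129 and 195. The median share of the JX library was 0.0409% and 0.0513%, and the 3 groups overlapped. With these counts kept, Tcf4 had a JX site in 72 of 72 treated and 46 of 47 untreated tumours. Among 175123 JX sites of all genes 257 were listed in at least 118 tumours, so Tcf4 shared this with many positions. The left end was listed as opposite to the gene in 117 lines and the right end as the same in 111. In IR the position was listed in 112 tumours, 37 of them with at least 10 counts. A second JX position, 69574896 in intron 3, was listed in 22 tumours with at most 24 counts.

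**Figure D4:**
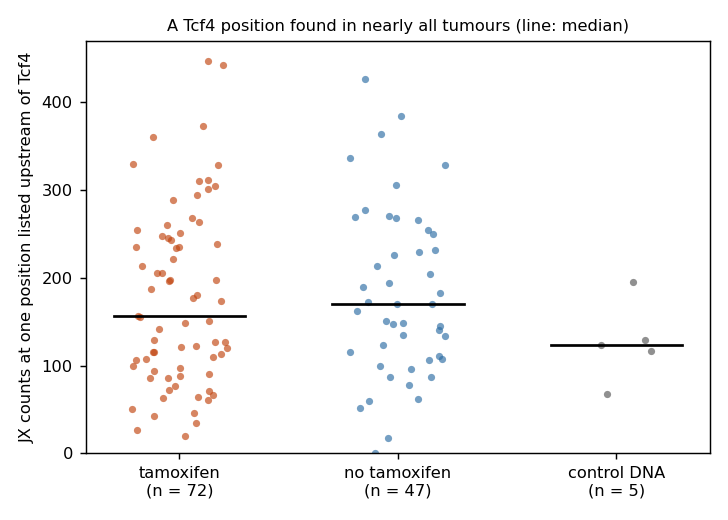
JX counts at the position 64.535 kb before the Tcf4 body in each tumour and control DNA, 1 point each, with the median as a line (156 with tamoxifen, 170 without, 124 in control DNA). Only 1 untreated tumour lies at 0, and the control DNAs fall inside the range of the tumours.

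No E-protein gene passed the test of the listed orientation of the element relative to the gene. In IR 62 of 178 Tcf4 sites (34.8%, exact 95% interval 27.9 to 42.3%) were listed in the same orientation as the gene. The exact binomial test against an even split gave p = 6.31e-05, the lowest of 13651 genes, and an adjusted p of 0.861 (Benjamini-Hochberg). That test called 0 genes (0%) in IR, 0 of 1277 in JX (0%) and 0 of 5249 in PB (0%), with 415, 28 and 172 genes at an unadjusted p under 0.05. Counted once in each tumour that had the site, so that a shared site counts more than once, the shares were 44 of 126 (34.9%) in treated and 24 of 68 (35.3%) in untreated tumours. Counted the same way, intron 3 had 22 of 64 (34.4%), the rest of the body 38 of 104 (36.5%) and positions outside 8 of 26 (30.8%). From left-end libraries alone the share was 32.8% of 116 sites (adjusted p = 0.222 by the exact binomial test) and from right-end libraries alone 36.3% of 102 (adjusted p = 0.625 by the exact binomial test).

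**Figure D5:**
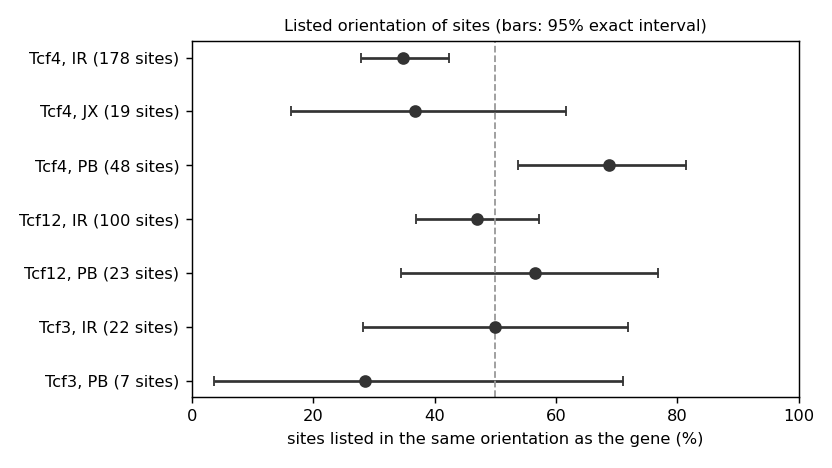
Percent of sites of at least 10 counts listed in the same orientation as the gene, for each gene and kind of library with at least 6 sites. Bars are exact 95% intervals over sites, and the dashed line marks an even split. The interval of Tcf4 in IR lies below the line (34.8% of 178 sites) and that of Tcf4 in PB above it (68.8% of 48 sites), and the other intervals cross it. In JX and PB the left and right ends of a position are mostly listed oppositely, so these pooled points do not give the orientation of the element.

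In PB 33 of 48 Tcf4 sites (68.8%) were listed in the same orientation, with an exact binomial p of 0.0133 and an adjusted p of 1. Tcf12 had 47 of 100 IR sites in the same orientation (47%) and Tcf3 had 11 of 22 (50%), with an adjusted p of 1 for both. What the listed orientation refers to differs between kinds of library. At positions with both ends read, both ends were listed alike in 64.8% of IR positions but in 0.722% of JX and 0.651% of PB positions. IR and PB shares therefore cannot be set against each other. A JX or PB share that pools both ends also does not give the orientation of the element. By end, 22 of 30 Tcf4 PB sites (73.3%) were listed as the same from left-end libraries and 11 of 18 (61.1%) from right-end libraries.

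Shares of tumours with a site differed by donor chromosome for some genes on the donor chromosomes. Tcf3, which lies on chromosome 10, was not among the genes called. Fisher's exact test of donor chromosome 10 (90 tumours) against 7 (29 tumours), added after the data were seen, called 122 of 17807 genes in IR (0.685%), 11 of 4514 in JX (0.244%) and 25 of 9795 in PB (0.255%). All of the IR calls lay on chromosome 10 (23 of 963 genes, 2.39%) or 7 (99 of 1607 genes, 6.16%). None of 15237 genes elsewhere was called, where 494 had an unadjusted p under 0.05. Tcf3 had an IR site in 18 of 90 tumours with donor chromosome 10 (20%) and in 1 of 29 with chromosome 7 (3.45%), with an exact p of 0.0405 and an adjusted p of 0.597 (Benjamini-Hochberg). Of 963 chromosome 10 genes 85.8% had a higher share with donor chromosome 10. Tcf4 had 62 of 90 (68.9%) and 19 of 29 (65.5%), and Tcf12 had 40 (44.4%) and 16 (55.2%), each with an adjusted p of 1. Among tumours with donor chromosome 10 alone, Tcf3 IR sites were in 14 of 53 treated (26.4%) and 4 of 37 untreated tumours (10.8%). By lane, the Tcf3 share in IR was higher with tamoxifen in 7 of 9 lanes, lower in 1 and equal in 1, and the Tcf4 share was higher in 7 and lower in 2. The Tcf12 share in IR was higher in 5 and lower in 4. In JX the Tcf4 share was higher with tamoxifen in 5 lanes and lower in 3, that of Tcf12 higher in 3 and lower in 2, and that of Tcf3 higher in 0 and lower in 2. In PB they were higher in 3 and lower in 5 for Tcf4, 5 and 3 for Tcf12, and 5 and 0 for Tcf3. Spread positions were left out of these counts, and in the remaining lanes the arms had equal shares.

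The listed days of the treated animals were set against the sites without a test, in a split at the median that was chosen after the data were seen. Of 36 tumours at or below 49 days 26 (72.2%) had a Tcf4 IR site, and of 35 tumours above it 26 (74.3%). Tcf12 IR sites were in 19 (52.8%) and 16 (45.7%), and Tcf3 IR sites in 7 (19.4%) and 7 (20%). Tcf4 JX sites were in 7 (19.4%) and 1 (2.86%), while the JX depth had medians of 360512 and 467455 counts. The IR shares of all members were close, and the JX counts are small.

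Partners and regulators of E-proteins were read from a list of 53 genes, of which 53 were in the table. These are other helix-loop-helix factors such as Atoh1, Neurod1 and Olig2, the Id genes, and cofactors such as Ep300, Crebbp, Lmo2 and the Eto family genes Runx1t1, Cbfa2t2 and Cbfa2t3. Called sites were found for 3 of them in IR libraries (5.66%), for 11 in JX (20.8%) and for 4 in PB (7.55%), beside the shares over all genes of 6.01, 15.9 and 7.83%, and none reached the 3 animals needed for a test. Myf5, a myogenic factor, had the most, with 2 treated tumours in JX, 2 in PB and 1 in IR and no untreated one. It lies on chromosome 10, a donor chromosome, and at 10 or more counts it had an IR site in 36 treated (50%) and 24 untreated tumours (51.1%), a JX site in 10 (13.9%) and 8 (17.0%) and a PB site in 13 (18.1%) and 10 (21.3%), each with an adjusted p of 1 by Fisher's exact test. At 10 or more counts, Fisher's exact test was run for 50 genes of the list in IR, 16 in JX and 34 in PB. It called 0 of them (0% of all genes tested in each kind), with 2, 0 and 0 at an unadjusted p under 0.05. In IR 33 of the 50 had a higher share with tamoxifen and 17 a lower one. Cbfa2t3, a corepressor that binds E-proteins, had IR sites in 16 treated (22.2%) and 4 untreated tumours (8.51%), with an exact p of 0.0775 and an adjusted p of 1. Crebbp, a histone acetyltransferase that E-proteins recruit, had IR sites in 27 (37.5%) and 15 (31.9%).

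The genes whose CPM ran most like those of a member over the 119 tumours are given as a description, since all genes share the libraries and their depth. For Tcf4 in IR they were Ssbp3 (Spearman's rho 0.554), Ltbp1 (0.547) and Stab2 (0.529), where the median over 2519 genes was 0.229. For Tcf12 in IR they were Ptprd (0.573), Slc44a1 (0.515) and then Ube2e2, with a median of 0.228. For Tcf4 in JX they were Gm13084 (0.846), Pdzd2 (0.834) and Psd3 (0.821), with a median of 0.352 over 2006 genes.

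Control DNA libraries were measured in the same way. The labels do not say what this DNA is, so its values are given side by side with the tumours. Summed without the position shared by nearly all tumours, the 5 control DNAs had 2, 6, 30, 106 and 354 IR counts in Tcf4, and 0, 0, 158, 702 and 3547 in Tcf12. For Tcf3 there were 41 in 1 of them and 0 in the other 4. In JX they had 0 to 2 counts in Tcf4, 0 to 7 in Tcf12 and 0 in Tcf3, and in PB 1 count in Tcf4 in 1 of them and none in Tcf12 or Tcf3. In 1 control DNA a single line in intron 3 of Tcf12 held 3347 IR counts, more than the 1903 counts of the called Tcf12 IR site. That line lay at 71762777, where untreated tumour 25 had 19 IR counts. A control line in Tcf4 with 70 IR counts lay at 69771451, where tamoxifen tumour 50 had 85. Both positions were counted as tumour loci, and control DNA did not enter the number of tumours listing a position.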

How the data were processed

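The authors deposited whole-number counts of each position in each library, with no scaling. Per the labels' protocols, genomic DNA of snap frozen tumours was sheared, joined to splinkerette adaptors, cut with BamHI and amplified from the SB part, the PB part or their boundary. Positions are in mm9, per the submitters' processing notes. The sources used here do not give the aligner, the counting rule or the annotation. Positions and libraries were matched to animals through the authors' sample sheet, and 1 animal spelled in 2 ways was joined. The animal was the replicate, with both ends and repeat lanes summed (7 animals were in 2 lanes).

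Positions within 10 bp were merged. A called site had 10 or more counts and 1% or more of the highest site, and was credited to the animal with the highest share. A position was spread where at least 3 animals listed it and none held over 50% of its counts. Lines without a gene held 18.9% of counts and stayed out of the gene tests.

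Fisher's exact tests needed a gene hit in at least 3 animals, orientation tests at least 6 sites, and the adjusted threshold was 0.05. Counts per gene were tested with edgeR 4.0.16 (totals of counts with a listed gene as offset, filterByExpr), with limma 3.58.1 and DESeq2 1.42.0 size factors as alternatives, in R 4.3.3. Python 3.11.15 with scipy 1.17.1 did the rest. The tests were tried on simulated data. The 3 genes and the partner list were chosen with earlier results of these data known. Named were the 3 members, up to 6 partners hit in the most animals, and per member and kind the 3 genes of highest Spearman correlation. Control tumours and animals of no usable arm were not compared.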

Additional observations from a re-analysis of the deposited data

Results flagged for a closer look

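Among the 5 control DNAs, 4 of 11 sets of values had 1 library far from the others by Dixon's test. Chance does so in about 1 of 20 sets of continuous values, a rate that does not hold for these counts: in 2 of the 4, all libraries but 1 were at 0, which the test always sets apart, and 3 of the 11 were 0 throughout and could not be set apart. IR counts in Tcf12 reached 3547 in 1 library against 702 in the next. IR counts in Tcf3 were 41 in 1 library and 0 in the others. At the Tcf4 position shared by nearly all tumours 1 library had 59 IR counts and the next 13. PB counts in Tcf4 were 1 in 1 library and 0 in the others.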

How the results depend on the processing

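Over all alternatives with a reported value beside them, 342 values were kept, 27 moved, 20 changed sign and 2 passed a threshold that the reported value did not. Kept means the same direction and side of the threshold or, for counts and shares, a value near the reported one. Fits of a member that had no reported fit, such as Tcf12 and Tcf3 in JX with no filter, are not in these numbers. No gene differed between arms in called or low-level sites under any alternative run. Tumours with a called E-protein site came to 25% with tamoxifen and 27.7% without at a minimum share of 0.1% (22.2% and 25.5% away from the donor chromosome). They came to 36.1% and 46.8% when a site counted in every animal that had it (34.7% and 46.8% away), and to 1.39% with tamoxifen and 10.6% without from right ends alone (0% and 8.51% away). Leaving out each lane gave 4.92 to 8.33% with tamoxifen and 2.27 to 5.56% without (3.28 to 6.67% and 2.27 to 5.56% away).

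Genes called on counts in IR, JX and PB were 7842, 5420 and 8482 with no filter, 0 in each with limma at pseudocount 1 or 10, and 5, 0 and 0 with lane as a covariate. In JX they were 134 with TMMwsp, 140 with DESeq2 size factors and 46 with the donor chromosome as a covariate. Scaling moved the median log2 difference of all genes in IR from 0.62 to 0.05 with TMMwsp, where Tcf4 had -1.29 (adjusted p = 0.0325 by edgeR). With DESeq2 size factors Tcf4 in JX had 0.82 (adjusted p = 0.0365 by edgeR), where the median was 0.02 in place of -0.23. With no filter, Tcf12 in JX had -2.38 (adjusted p = 0.0028 by edgeR) and Tcf3 in JX 2.40 (adjusted p = 0.0338 by edgeR). Tcf4 in IR turned to 0.40 and 0.17 with limma. In JX it turned to -0.23 and -0.28 with limma, -0.30 with lane and -0.38 without the highest tumour. The causes were not tested.

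Differences in the share of tumours with low-level sites, in percentage points with tamoxifen minus without, turned to -0.443 for Tcf3 in IR and to -3.22 for Tcf12 in PB at 3 counts. These alternatives and those by lane keep spread positions. For Tcf4 in JX the difference was 2.13 with spread positions kept and -2.39 with them left out, as in the shares reported. Leaving out each lane in turn, an alternative added after seeing the data, gave -0.280 to 13.1 for Tcf12 in IR (below 0 without lane 6), -4.06 to 1.01 for Tcf12 in JX, -2.60 to 4.96 for Tcf12 in PB and -8.92 to 3.65 for Tcf4 in PB. Orientation in PB had 1 gene past the threshold from left ends and 1 from right ends, also added after seeing the data. No paired analysis was possible because the arms hold different animals that share no number. Lanes, which hold both arms, were a covariate only in an alternative edgeR fit, and the reported tests had no covariate. PB depth, down to 1714 counts, limits what 0 PB counts can show.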
